A study of Mus musculus with 8 samples.

Results

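The 8 enzymes of cholesterol synthesis described here are Hmgcs1, Mvd, Idi1, Fdps, Fdft1, Sqle, Lss and Cyp51, taken by symbol from a table of 54532 mouse genes, and all 8 were among the 13560 genes with enough reads to be tested. They were read in 4 RNA-Seq libraries of EpCAM+ and 4 of EpCAM- LSK cells, the Lin- C-KIT+ SCA-1+ bone marrow compartment in which stem and progenitor cells lie. Every library came from C57BL/6 mice of 8 to 12 weeks in which Zeb1, a transcriptional repressor, had been deleted by Mx1-Cre through treatment with pIpC, and RNA was taken on day 14 after the last dose. Mx1-Cre is induced by interferon and is not restricted to blood cells. No library of mice with intact Zeb1 is part of the comparison, which asks how the fraction that carries the adhesion glycoprotein EpCAM differs from the fraction that does not.

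Cholesterol is made from acetyl-CoA in the mevalonate pathway. Its early enzymes build isoprenoid diphosphates, which also serve to prenylate proteins and to make ubiquinone and dolichol, and squalene synthase then commits carbon to sterols. The genes are known to be switched on together by the transcription factor SREBP2, encoded by Srebf2, which SCAP carries out of the endoplasmic reticulum when sterol is low and INSIG proteins hold back when sterol is high. In blood stem and progenitor cells, cholesterol supply and efflux are known to bear on proliferation.

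Reads on genes totalled 15225714 to 17073546 per EpCAM+ library and 14114491 to 15929923 per EpCAM- library. Levels are given as CPM, counts scaled to library size (TMM), and fold changes are EpCAM+ over EpCAM- from edgeR's quasi-likelihood test, called at an adjusted p (Benjamini-Hochberg over all genes tested) under 0.05. Epcam was at 187 ± 32.7 CPM in the EpCAM+ and 3.86 ± 3.61 CPM in the EpCAM- libraries (SD, n = 4 each). Reads of Zeb1 were counted in both fractions (19.5 ± 3.75 and 11.9 ± 2.14 CPM), and gene totals do not show whether they span the deleted part. Of 10 LSK markers 8 were higher in EpCAM+ cells (summed level 2853 to 3110 CPM against 1484 to 2295 CPM), and Cd34 and Cd48 did not pass the test. Among the 8 was Ly6a, the gene of the sort marker SCA-1, at 116 to 351 CPM in EpCAM+ libraries. In EpCAM- libraries 1 to 4 it was at 71.7, 61.3, 16.4 and 15.7 CPM. In bulk samples, fewer cells of a type and less RNA per cell cannot be told apart.

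Since these genes share a known regulator, the promoters of those that RefSeq's table for GRCm38.p6 holds (5 of 8: Cyp51, Mvd, Lss, Idi1 and Hmgcs1) were searched on both strands, from 250 bases before to 50 after the start. Printed are that of Hmgcs1 (chr13:119690101-119690400, plus strand), the single one with a match to the 1 sterol regulatory element core searched, that of Lss (chr10:76531355-76531654, plus strand), whose gene was lower in EpCAM+ cells, and that of Cyp51 (chr5:4104648-4104947, minus strand), whose gene was at near equal levels. Capitals mark TCACCCCAC, the sterol element core searched, and CCAAT or its complement ATTGG, the box of the factor NF-Y that is known to act beside SREBP.
Hmgcs1: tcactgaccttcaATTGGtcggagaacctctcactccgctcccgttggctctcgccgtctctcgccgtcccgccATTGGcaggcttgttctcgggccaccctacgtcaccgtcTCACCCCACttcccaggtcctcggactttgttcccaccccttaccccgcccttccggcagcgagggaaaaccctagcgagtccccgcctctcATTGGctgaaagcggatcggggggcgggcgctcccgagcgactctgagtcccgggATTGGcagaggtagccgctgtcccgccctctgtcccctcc
Lss: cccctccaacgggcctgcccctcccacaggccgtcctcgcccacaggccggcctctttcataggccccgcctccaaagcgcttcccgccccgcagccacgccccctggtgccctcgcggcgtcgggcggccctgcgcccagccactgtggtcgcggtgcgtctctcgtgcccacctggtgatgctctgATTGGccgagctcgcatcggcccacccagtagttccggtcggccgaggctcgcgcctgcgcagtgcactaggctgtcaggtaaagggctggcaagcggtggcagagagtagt
Cyp51: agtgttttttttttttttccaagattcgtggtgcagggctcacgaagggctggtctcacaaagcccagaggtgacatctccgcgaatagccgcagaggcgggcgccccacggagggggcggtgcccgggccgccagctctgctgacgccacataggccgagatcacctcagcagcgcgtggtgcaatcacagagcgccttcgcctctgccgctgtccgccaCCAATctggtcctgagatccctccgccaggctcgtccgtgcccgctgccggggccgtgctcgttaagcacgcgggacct
CCAAT occurred in 5 of these 5 promoters and in 37.4% of all 32851 promoters of that length. GGGCGG, a GC box, occurred in 5 of 5 and in 35.7% of all. TCACCCCAC with at most 1 mismatch occurred in Hmgcs1 alone, as an exact match from base -137, against 9.82% of all. CAGGTG, letters that ZEB1 is known to bind, occurred in Lss alone, against 20.2% of all, and CACGTG in none of the 5, against 7.15%. Other forms of the sterol element were not searched, so a promoter without a match is not shown to lack one. These matches describe the letters and not bound sites.

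Along the pathway, no enzyme of the 8 was higher in EpCAM+ cells, 2 were lower and 6 did not pass the test. Sqle, the squalene epoxidase that is held to be a rate-limiting step, and Lss, the lanosterol synthase that acts on its product, were the 2 that fell. Fdft1 and Cyp51, the steps just before and just after them, were at nearly equal levels in both fractions. Over all 13560 genes tested, 21.8% were called higher and 20.8% lower, so 2 of 8 lower is near the share of all genes. The median log2 fold change of the 8 was -0.22, beside 0.02 over all genes tested. All 4 EpCAM+ levels lay below all 4 EpCAM- levels for 1 of the 8, Lss, while 20% of all genes were separated in that direction and 20.1% in the other.

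Sqle was counted at 45.8, 49.2, 41.6 and 39.9 CPM in EpCAM+ libraries 1 to 4 and at 54.6, 48.8, 65.7 and 76.1 CPM in EpCAM- libraries 1 to 4. EpCAM+ library 2 lay just above EpCAM- library 2, and the other EpCAM- libraries were above every EpCAM+ library. The means were 44.1 ± 4.19 and 61.3 ± 12.1 CPM (SD, n = 4 each), a fold of 0.720, with a log2 fold change of -0.47 (95% interval -0.77 to -0.17, edgeR adjusted p = 0.0174). The EpCAM- libraries varied more, with a coefficient of variation of 19.8% against 9.49%.

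Lss was counted at 19.5, 18.3, 14.1 and 14.0 CPM in EpCAM+ libraries 1 to 4 and at 19.97, 19.7, 23.1 and 25.9 CPM in EpCAM- libraries 1 to 4. The fractions did not overlap, but the highest EpCAM+ library and the lowest EpCAM- library were almost at the same level. The means were 16.5 ± 2.87 and 22.2 ± 2.93 CPM, and the log2 fold change was -0.43 (95% interval -0.75 to -0.11, edgeR adjusted p = 0.0360). This call was lost with upper-quartile scaling (adjusted p = 0.0735) or library totals (0.0813), and without EpCAM+ library 3 (0.100), EpCAM+ library 4 (0.0882), EpCAM- library 3 (0.0803) or EpCAM- library 4 (0.0916).

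**Figure D1:**
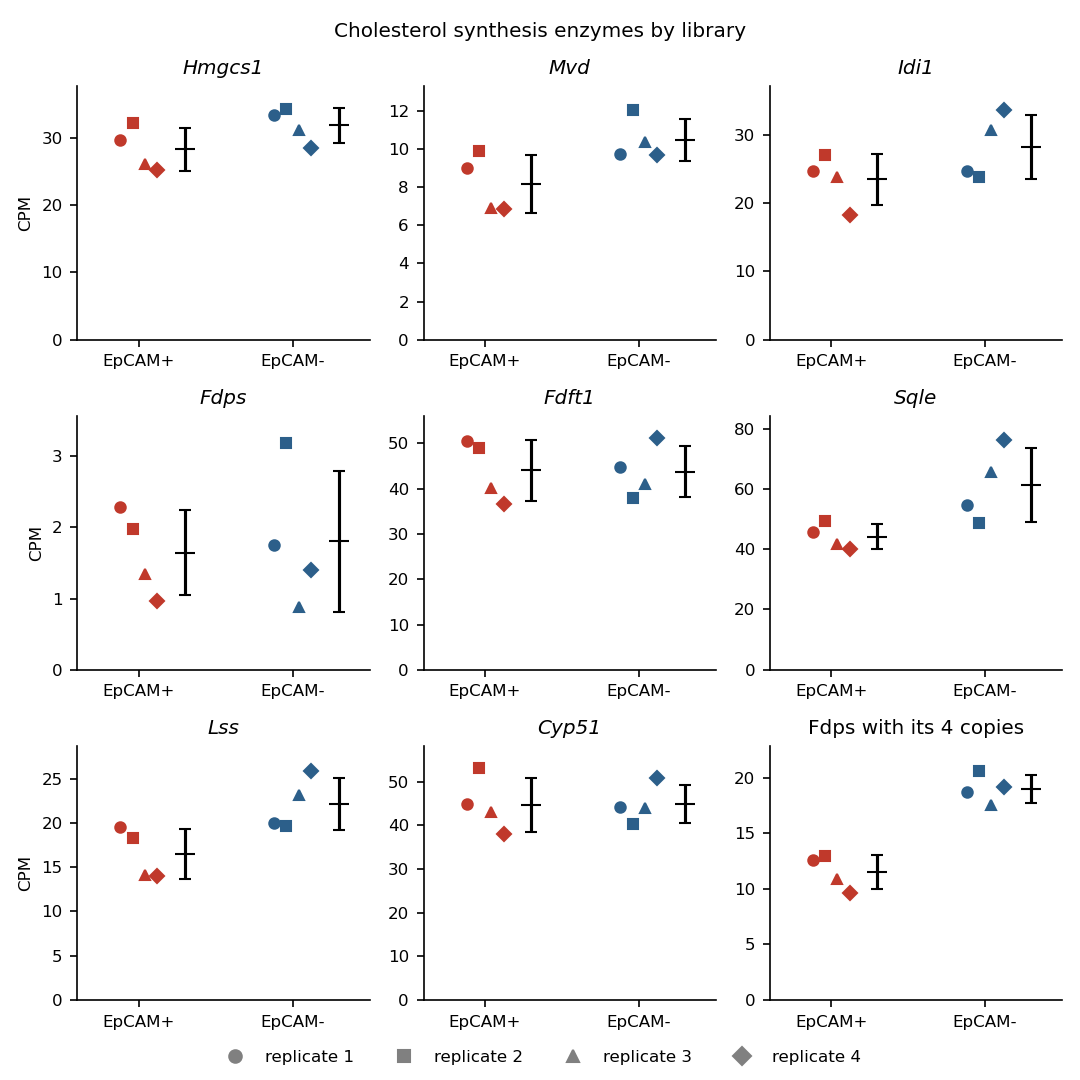
Level of each enzyme in CPM (vertical axes, from 0) in the 4 EpCAM+ (red) and 4 EpCAM- (blue) libraries, with the symbol giving the replicate number and the black bars the mean ± SD; the last panel holds Fdps summed with 4 processed pseudogene copies. Lss and the Fdps sum separate the fractions, Sqle overlaps in 1 library of each, and Fdft1 and Cyp51 lie at the same level.

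Much of the difference in Sqle and Lss came from libraries 3 and 4. The replicate numbers pair the libraries, and within pairs 1 to 4 the log2 ratio of Sqle was -0.25, 0.01, -0.66 and -0.93. For Lss the ratios were -0.03, -0.10, -0.72 and -0.89. In 7 of the 8 enzymes, Fdps being the exception, the ratios of pairs 3 and 4 both lay below those of pairs 1 and 2. This pattern was seen in the data and is given without a test, and its share over all genes was not counted. It was wide in Idi1 (-0.0001, 0.18, -0.36 and -0.88), Mvd (-0.11, -0.28, -0.58 and -0.50), Fdft1 (0.17, 0.36, -0.03 and -0.49) and Cyp51 (0.02, 0.40, -0.03 and -0.42). Hmgcs1 ranged least over the pairs (-0.1732, -0.0917, -0.2571 and -0.1742), and its pair 4 lay only barely below pair 1. The ratios of Fdft1 and Cyp51 were thus above 0 in pairs 1 and 2 and below 0 in pairs 3 and 4.

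The summed level of erythroid markers was higher in libraries 3 and 4 than in libraries 1 and 2 of each fraction. It was 2101, 2368, 5192 and 7015 CPM in EpCAM- libraries 1 to 4, against 120, 111, 151 and 305 CPM in EpCAM+ libraries 1 to 4. Of these markers 7 of 8 were called lower in EpCAM+ cells (Car1, Klf1 and Gata1 among them) and Hbb-bt higher, with none at 0 in every library. With EpCAM- libraries 3 and 4 left out, 0 of the 8 enzymes were called, with 1653 genes called higher and 1700 lower. Sqle was then at a log2 fold change of -0.24 (edgeR adjusted p = 0.151) and Lss at -0.28 (0.250), while the median of the 8 was -0.26. Neutrophil markers were also lower in EpCAM+ cells (4 of 9 called, Mpo, Elane and Ctsg among them, summed level 1097 to 1853 against 11942 to 18563 CPM), and 2 of 7 plasma cell markers, Jchain and Mzb1, were higher (385 to 3961 against 169 to 256 CPM). Of the other marker lists, those of B (2 of 7, Ms4a1 and Cd79a, with Pax5 at 0 in every library), dendritic (3 of 8, Xcr1 among them) and T cells (2 of 7, Lck and Cd4) and of megakaryocytes (1 of 6, Gp9) held genes that were higher, and those of monocytes or macrophages (3 of 7) and of mast cells or basophils (4 of 6, Cpa3, Mcpt8 and Ms4a2 among them) held genes that were lower. Each of these counts is out of all markers listed. Tested were 4 plasma cell, 3 B, 6 dendritic, 2 T, 5 megakaryocyte and 6 monocyte or macrophage markers, the others having too few reads. The part of the cell type markers in the levels of the enzymes was not tested.

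**Figure D2:**
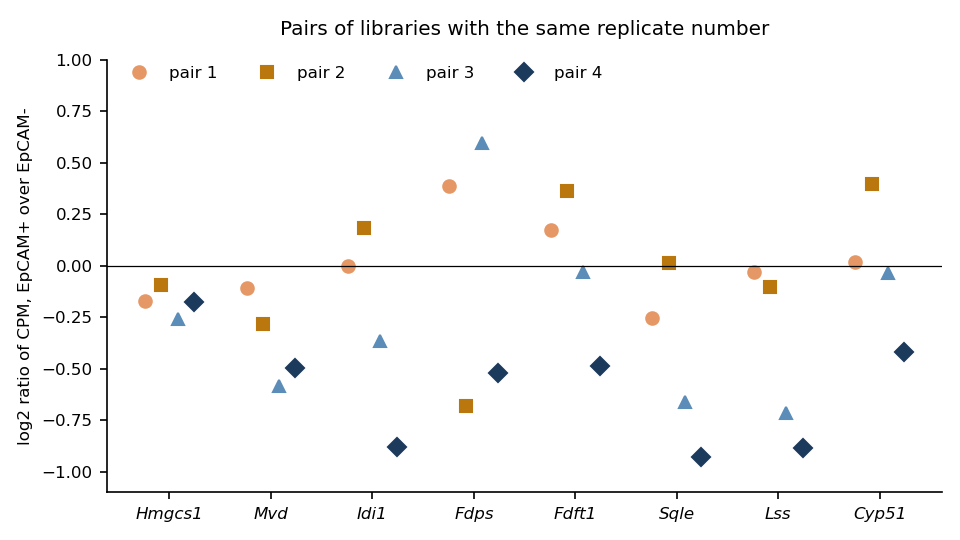
log2 ratio of CPM, EpCAM+ over EpCAM- (vertical axis), for each enzyme in the 4 pairs of libraries that share a replicate number. In 7 of the 8 enzymes pairs 3 and 4 lie below pairs 1 and 2, in Hmgcs1 only barely, with Sqle at -0.93 and Lss at -0.89 in pair 4. The share of all genes with this order was not counted.

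The first step read here is Hmgcs1, the HMG-CoA synthase that feeds the mevalonate route. It was at 25.2 to 32.1 CPM in EpCAM+ and 28.5 to 34.3 CPM in EpCAM- libraries, and its log2 fold change was -0.17 (95% interval -0.40 to 0.06, edgeR adjusted p = 0.209). Mvd, which decarboxylates mevalonate diphosphate to isopentenyl diphosphate, was at 6.87 to 9.92 against 9.71 to 12.1 CPM, with a log2 fold change of -0.35 (-0.71 to 0.005, adjusted p = 0.102). Idi1, the isomerase that turns part of it into dimethylallyl diphosphate, was at 18.3 to 27.1 against 23.9 to 33.7 CPM, with a log2 fold change of -0.26 (adjusted p = 0.172). The fractions overlapped for each of these genes, and the interval of Mvd reached from a clear decrease to no change.

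Fdft1, squalene synthase, was at 50.5, 48.9, 40.2 and 36.5 CPM in EpCAM+ libraries 1 to 4 and at 44.8, 38.0, 41.0 and 51.1 CPM in EpCAM- libraries 1 to 4. Its log2 fold change was 0.01 (95% interval -0.27 to 0.29, edgeR adjusted p = 0.960). Cyp51, the demethylase that removes the 14α-methyl group of lanosterol, was at 44.8, 53.0, 43.0 and 38.0 CPM against 44.2, 40.3, 44.0 and 50.8 CPM, a log2 fold change of -0.004 (-0.25 to 0.25, adjusted p = 0.982). Both fractions covered the same range for these genes. Each overlaps a more highly counted gene on the opposite strand, Fdft1 with the protease gene Ctsb (3941 to 5629 counts) and Cyp51 with Akap9 (960 to 2131 counts), and the strand setting of the counting is not given in the sources used here.

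Because Sqle and Fdft1 act in turn, their ratio within a library was also read, which does not depend on how libraries are scaled. It was 0.906, 1.01, 1.03 and 1.09 in EpCAM+ libraries 1 to 4 and 1.22, 1.28, 1.60 and 1.49 in EpCAM- libraries 1 to 4. The fractions did not overlap, and the same held for Cyp51 to Lss, at 2.29 to 3.05 in EpCAM+ and 1.90 to 2.21 in EpCAM- libraries. Lss to Sqle, by contrast, overlapped (0.372 ± 0.0392 and 0.366 ± 0.0275), as did the other neighbouring steps. So Sqle and Lss were low relative to the steps on either side of them in EpCAM+ cells. These ratios were chosen after the levels had been seen and carry no test.

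**Figure D3:**
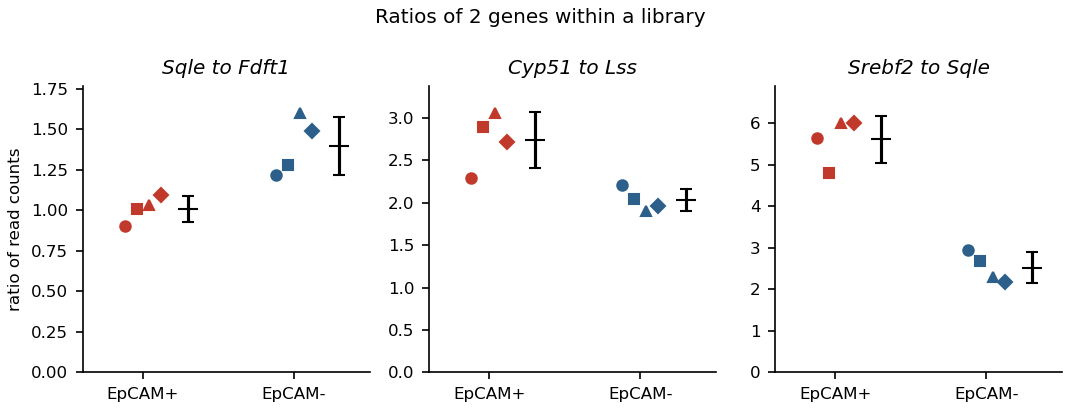
Ratio of the read counts of 2 genes within each library (vertical axes, from 0) in EpCAM+ (red) and EpCAM- (blue) cells, with the symbol giving the replicate number (circle 1, square 2, triangle 3, diamond 4) and bars the mean ± SD. Sqle to Fdft1 is 0.906 to 1.09 against 1.22 to 1.60, Cyp51 to Lss 2.29 to 3.05 against 1.90 to 2.21 and Srebf2 to Sqle 4.79 to 6.01 against 2.17 to 2.95.

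Fdps, the farnesyl diphosphate synthase at the branch point between sterols and isoprenoids, was hardly counted, at 35, 35, 24 and 15 reads in EpCAM+ libraries 1 to 4 and 28, 43, 13 and 19 in EpCAM- libraries 1 to 4. Its log2 fold change of -0.13 had a 95% interval from -1.04 to 0.79 (edgeR adjusted p = 0.825), so a large change in either direction could not be told from no change at so few reads. The mouse genome holds processed pseudogenes that are near copies of its messenger RNA. Gm3571, on chromosome 10 (chr10:93778660-93779719), matched the Fdps transcript at 98.87% of 1062 aligned bases, and Gm5873 at 96.717% of 1066. The following stretch, coding bases 477 to 626 of Fdps in GENCODE M21 counted from the first base of the start codon, is shown because a read of 150 bases within it differs between gene and copy at 2 bases, which are in capitals.
Fdps: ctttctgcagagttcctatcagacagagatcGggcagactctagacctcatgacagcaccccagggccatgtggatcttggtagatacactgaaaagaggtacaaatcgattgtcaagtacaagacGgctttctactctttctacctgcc
Gm3571: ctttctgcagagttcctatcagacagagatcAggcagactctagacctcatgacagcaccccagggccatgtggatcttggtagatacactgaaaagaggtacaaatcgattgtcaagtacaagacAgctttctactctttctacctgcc
Gm3571 carried 149, 178, 153 and 117 reads in EpCAM+ libraries 1 to 4 and 255, 220, 223 and 225 in EpCAM- libraries 1 to 4, several times those of Fdps itself. It was lower in EpCAM+ cells, at 8.99 ± 1.15 against 15.99 ± 0.576 CPM (log2 fold change -0.83, SE 0.12, edgeR adjusted p = 0.000744). Whether these reads came from Fdps or from its copy cannot be read from the table, in which the handling of reads with several matches is not stated. Fdps also shares 929 identical bases with Gm43738, an overlapping gene on the same strand that carried 0 counts in every library.

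Summed with its 4 processed copies, Fdps was at 12.6, 12.9, 10.9 and 9.60 CPM in EpCAM+ libraries 1 to 4 and at 18.7, 20.6, 17.5 and 19.1 CPM in EpCAM- libraries 1 to 4. Here the fractions lay far apart and each varied little. The means were 11.5 ± 1.56 and 19.0 ± 1.25 CPM, with a log2 fold change of -0.72 (SE 0.12, edgeR adjusted p = 0.00139), a sum chosen after the data had been seen. It was called with upper-quartile scaling (-0.64, adjusted p = 0.00291), with library totals (-0.64, 0.00355), with EpCAM- libraries 3 and 4 left out (-0.78, 0.0122) and without each library in turn (-0.78 to -0.65, highest adjusted p = 0.00610). Idi1 and Fdft1, which also have processed copies, hardly moved when summed with them (log2 fold change -0.26 and 0.008), since those copies carried at most 7 counts. Most reads of the sum were those of Gm3571, so it does not show that Fdps itself was lower.

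Compared between genes per kilobase of exon, Fdft1 (10.4 ± 1.60) and Cyp51 (10.1 ± 1.42 CPM per kilobase) led in EpCAM+ cells, followed by Sqle (7.96 ± 0.755), Idi1 (6.71 ± 1.07), Hmgcs1 (6.15 ± 0.701), Mvd (4.40 ± 0.823), Lss (1.53 ± 0.266) and Fdps (0.391 ± 0.142). In EpCAM- cells Sqle came first (11.0 ± 2.18), ahead of Fdft1 (10.3 ± 1.34) and Cyp51 (10.2 ± 0.995) by less than its spread. Idi1 (8.07 ± 1.34), Hmgcs1 (6.92 ± 0.565), Mvd (5.63 ± 0.594), Lss (2.06 ± 0.272) and Fdps (0.429 ± 0.234) then followed in the same order. Fdft1 and Cyp51 did not differ beyond their spread in either fraction, and Idi1 and Hmgcs1 differed by less than the spread of Idi1 in both. The lengths used are exons over all transcripts of a gene, which sets some levels low on this scale. Lss has 10787 bases, Sqle 5546 and Fdps 4208, while their longest coding transcripts in GENCODE M21 have 4667, 2758 and 1382. For Fdft1 (4227 and 3698) and Cyp51 (4415 and 3931) both lengths lie closer. The order of the genes thus rests on the length used, and the place of Sqle beside Fdft1 and Cyp51 is not settled.

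Variation of the enzymes with each other between libraries of the same fraction was also read. After the mean of each fraction was removed, the median correlation of log2 CPM over the 28 pairs of enzymes was 0.455 (range -0.334 to 0.890, 25 of 28 above 0, 8 libraries). The 28 pairs share 8 genes and are not independent. No such median was taken over pairs of other genes, so these values do not show a trait particular to the enzymes. Idi1 and Sqle (0.890), Idi1 and Cyp51 (0.875), Hmgcs1 and Mvd and Fdft1 and Lss were the closest pairs. On average the 8 enzymes lay above the mean of their fraction in EpCAM+ libraries 1 (0.17) and 2 (0.22) and below it in EpCAM+ libraries 3 (-0.12) and 4 (-0.27), while the EpCAM- libraries stayed between -0.08 and 0.10. This average includes Fdps, at 13 to 43 reads a library. In EpCAM- libraries 1 to 4 its deviations were the widest of the 8 (0.09, 0.91, -0.79 and -0.21). The small EpCAM- averages thus lean on a gene with few reads. The points share the depth and scaling of their library, so these values describe the libraries only.

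Among 12672 other genes, the 6 whose deviations were most like the mean of the 8 enzymes were Gm3571 (r = 0.986), Lmntd2 (0.972), Aldh4a1 (0.968), Fastkd3 (0.960), Bdh1 (0.954) and Natd1 (0.951), over the same 8 libraries, where 95% of genes were below 0.592. Of genes on the pathway lists, Fads2 (0.953), Stard4 (0.908) and Srebf1 (0.816) stood close to the enzymes, Insig1 (0.657) and Msmo1 (0.601) were just above that level and Srebf2 (0.0773) was far below it. Over the 8 libraries together, the neutrophil gene Mpo (-0.804) and the erythroid gene Car1 (-0.683) ran opposite to the mean of the enzymes. A further neutrophil gene, Elane (-0.446), and a further erythroid gene, Klf1 (-0.405), did so less strongly. In the EpCAM- libraries alone Car1 showed no such opposite run, at 1599, 1905, 4313 and 5956 CPM in libraries 1 to 4. There the mean deviation of the enzymes was -0.05, 0.02, -0.08 and 0.10. The part of Mpo and Car1 in the levels of the enzymes was not tested. Stard4 encodes a sterol carrier protein of the cytosol. The mean of the 8 enzymes used for this likeness includes Fdps, whose few reads and near copy Gm3571 are described above.

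Of a further 11 enzymes of the route, none was higher in EpCAM+ cells, 5 were lower and 6 did not pass the test, beside 20.8% of all genes called lower. Their median log2 fold change was -0.30, and 5 of the 11 were separated lower, beside 20% of all genes. Mvk, mevalonate kinase, was at 9.21 ± 1.48 against 13.0 ± 2.05 CPM (log2 fold change -0.50, edgeR adjusted p = 0.0312). The sterol C14 reductases that follow Cyp51 were both lower, Tm7sf2 at 4.23 ± 0.831 against 6.39 ± 1.12 CPM (-0.59, 0.0381) and Lbr, which is also a receptor of the nuclear lamina, at 213 ± 17.4 against 273 ± 20.6 CPM (-0.36, 0.0065). Ebp, the sterol isomerase, was at 110 ± 4.31 against 138 ± 11.7 CPM (-0.32, 0.00654), and Dhcr7, which makes cholesterol from 7-dehydrocholesterol, at 32.9 ± 2.73 against 40.2 ± 4.14 CPM (-0.29, 0.0366). With upper-quartile scaling or library totals, which moved the median of all genes to a log2 fold change of 0.11, Lbr and Ebp alone were still called, and with EpCAM- libraries 3 and 4 left out Ebp alone was.

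Acat2 (-0.16), Pmvk (-0.06), Msmo1 (0.07), Nsdhl (-0.30), Hsd17b7 (-0.40) and Sc5d (0.09) did not pass the test, with adjusted p from 0.0578 for Nsdhl to 0.726 for Pmvk. Nsdhl, a sterol dehydrogenase, passed with the replicate number as a block (adjusted p = 0.0437).

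**Figure D4:**
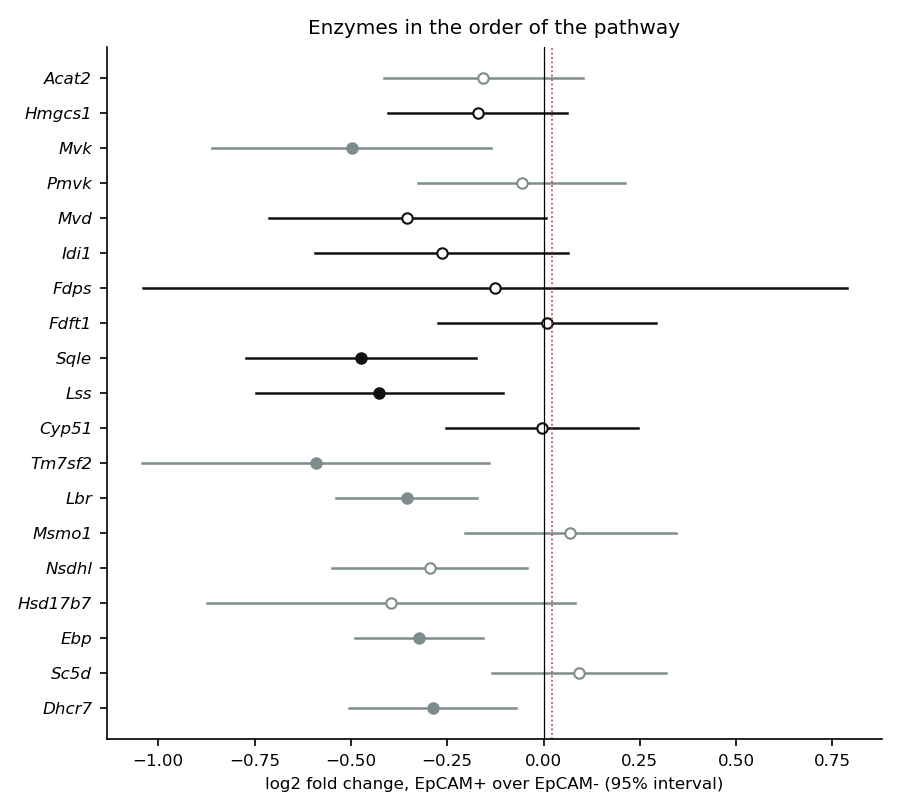
log2 fold change, EpCAM+ over EpCAM- (horizontal axis), with 95% intervals for 19 enzymes in the order of the pathway, the 8 described here in black and 11 others in grey. Filled points passed the test, all of them below 0, and the dotted line is the median of all genes tested (0.02).

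The gene of the factor known to control them moved the other way. Srebf2 was at 236 to 258 CPM in EpCAM+ libraries and at 131 to 165 CPM in EpCAM- libraries. The fractions lay far apart, and the log2 fold change was 0.69 (95% interval 0.51 to 0.88, edgeR adjusted p = 0.000264). Within a library Srebf2 was counted 5.64, 4.79, 6.01 and 6.01 times as often as Sqle in EpCAM+ libraries 1 to 4 and 2.95, 2.69, 2.29 and 2.17 times in EpCAM- libraries 1 to 4. A level of messenger RNA does not give the amount of processed factor in the nucleus. Srebf1, whose product drives fatty acid genes, was at a near equal level (-0.02, adjusted p = 0.931), and Scap (-0.09, 0.396) and Insig1 (-0.18, 0.426) did not pass the test. Of 11 regulators tested, Srebf2 was the 1 that was higher and 0 were lower by edgeR, while Erlin1 (-0.23, 0.05001), Insig2 (0.24, 0.0557) and Ubxn8 (-0.28, 0.0675) lay outside the threshold. Each was called under another setting, Erlin1 with DESeq2 (adjusted p = 0.0292), DESeq2 size factors (0.0407), the replicate block (0.0460) and without EpCAM- library 4 (0.0177), Insig2 with upper-quartile scaling (0.0158), library totals (0.0162), 10 counts in every library (0.0395) and the block (0.0339), and Ubxn8 with DESeq2 (0.0471), the block (0.0439) and without EpCAM+ library 4 (0.0329).

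Of 10 genes of sterol uptake and transport, 2 were higher and 1 lower, beside 21.8% and 20.8% of all genes. Npc1, which moves cholesterol out of lysosomes, was at 30.7 ± 3.96 against 14.2 ± 3.21 CPM (log2 fold change 1.11, edgeR adjusted p = 0.000707), and Vldlr, a lipoprotein receptor, was higher but overlapped (21.1 to 78.2 against 2.79 to 26.1 CPM, adjusted p = 0.0273). This call was lost without EpCAM+ library 1 (0.0585), EpCAM+ library 2 (0.0643) or EpCAM- library 3 (0.0788), and with EpCAM- libraries 3 and 4 left out (0.109). Scarb1, the receptor for high-density lipoprotein, was lower at 87.2 ± 5.69 against 131 ± 7.97 CPM (-0.59, 0.000346). Stard4, named above for its pattern, did not pass the test (0.14, 0.212).

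Of 11 genes of efflux, storage and oxysterols, 3 were higher and 2 lower, near the shares of all genes. Cyp7b1, an oxysterol hydroxylase, was at 7.003 to 12.2 against 1.25 to 2.15 CPM (log2 fold change 2.597, edgeR adjusted p = 0.000165). Cyp27a1, which makes 27-hydroxycholesterol, ranged from 1.76 to 21.5 CPM in EpCAM+ cells against 0.478 to 1.87 CPM (3.26, 0.00477), so the fractions overlapped. Across EpCAM+ libraries 1 to 4 it was at 21.5, 1.76, 6.15 and 17.9 CPM, and the dendritic cell markers Xcr1 (147, 11.5, 35.8 and 131 CPM) and Clec9a (27.5, 1.25, 5.14 and 26.3 CPM) were high and low in the same libraries, with a summed level of the 8 dendritic markers of 169 to 798 CPM against 228 to 313 CPM in EpCAM- libraries. Their part in this result was not tested, and with EpCAM- libraries 3 and 4 left out Cyp27a1 was not called (0.0673). Nceh1, a hydrolase of cholesterol esters, was higher (0.80, 0.000607) and Soat2, which esterifies cholesterol, was lower (-0.78, 0.0119; 0.0953 with EpCAM- libraries 3 and 4 left out). Abca1, the efflux pump, was at 1.69 to 8.17 against 0.662 to 4.18 CPM and did not pass the test (1.09, 0.114), though it did with the replicate number as a block (0.00169) and without EpCAM+ library 4 (0.0338).

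In the branches that share substrates with the pathway, counts are again read beside 20.8% of all genes called lower and 21.8% higher. Of 14 isoprenoid genes 5 were lower and 1 higher, among them Pdss1 for the ubiquinone side chain (log2 fold change -0.67, edgeR adjusted p = 0.00301), Nus1 for dolichol (-0.53, 0.00178), Rabggtb (-0.56, 0.00243), a subunit of the transferase that prenylates Rab proteins, and the protease Rce1 (-0.30, 0.0065). Of 13 fatty acid genes 4 were lower and none was higher, namely Acly (-0.33, 0.00736) and Slc25a1 (-0.32, 0.0153), which supply acetyl-CoA from citrate, Elovl1 (-0.35, 0.00288) and the desaturase Fads2 (-0.64, 0.0266). The call of Slc25a1 was lost with upper-quartile scaling (adjusted p = 0.0554) or library totals (0.0548), and that of Fads2 with library totals (0.0523) and without EpCAM+ library 3 (0.0739), EpCAM+ library 4 (0.0547), EpCAM- library 3 (0.0512) or EpCAM- library 4 (0.0706). With EpCAM- libraries 3 and 4 left out, Acly (0.0609), Slc25a1 (0.0908), Fads2 (0.167) and Rce1 (0.0528) were not called.

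**Figure D5:**
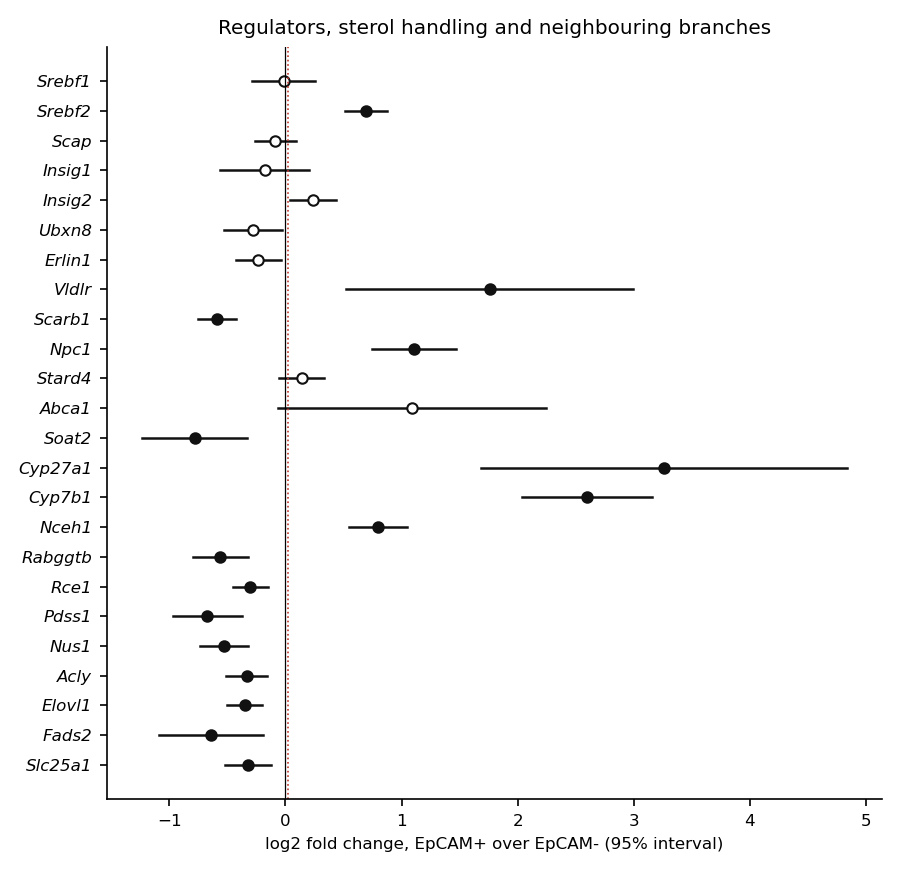
log2 fold change, EpCAM+ over EpCAM- (horizontal axis), with 95% intervals for regulators, sterol uptake and efflux genes and the isoprenoid and fatty acid branches; filled points passed the test and the dotted line is the median of all genes tested (0.02). Srebf2 (0.69), Npc1 (1.11) and Cyp7b1 (2.597) lie above 0, and the called isoprenoid and fatty acid genes shown lie below it.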

How the data were processed

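Total RNA of sorted EpCAM+ and EpCAM- Zeb1-/- LSK cells was amplified with SMART-Seq v4, made into libraries from 1 ng of cDNA and sequenced as 150-bp paired ends. The labels give 4 mice per genotype, and both fractions are of the same genotype. Whether both fractions came from the same mice is not stated. The authors deposited raw counts per gene, which the submitters' processing notes tie to STAR 2.6.1d, featureCounts 1.5.0-p3 and GRCm38.p6, and the deposited gene length in bases (exons of all transcripts) was used for levels per kilobase. Strandedness and the handling of reads with several matches are not given in the sources used here. The 8 FPKM columns and 15 columns of comparisons that the authors made (fold changes and p-values) were not used.

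Counts were filtered with filterByExpr, scaled by TMM and tested with edgeR 4.0.16 (quasi-likelihood, two-sided) in R 4.3.3, with standard errors from the F statistic. The procedure was tested on simulated data. Alternatives were DESeq2 1.42.0, limma-trend (limma 3.58.1), other scalings and filters, the replicate number as a block, and each library left out. Added after seeing the data were sums with processed pseudogene copies (blastn 2.17.0 against GENCODE M21, at least 95% identity over 150 bases) and leaving out EpCAM- libraries 3 and 4. Genes named are the 8 enzymes, 11 other enzymes of the route, up to 4 genes of each other pathway list with the smallest adjusted p, set regulators, called cell type markers of high level and the 6 genes most like the enzymes. Hbb-bt, Gm5873, Gm43738, Ctsb, Akap9 and Clec9a were named after their values were seen. The enzymes and lists were chosen with earlier results of these data known, and some genes of the pathway are not reported here.

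Replicate numbers paired the libraries. Deviations from the fraction means correlated across genes at 0.205 to 0.356 in the 4 pairs with the same number and at -0.216 to 0.0396 in the 12 others, and the sources used here do not say what a number shares. Nothing in the labels ties each library to its own mouse, so p-values measure the spread between these libraries. Counts of any 2 libraries of the same fraction differed by more than sampling noise (chi-square over its degrees of freedom, 10.3 to 97.4). Counting limits cover counting error only.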

Additional observations from a re-analysis of the deposited data

Results flagged for a closer look

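In 86 groups of 4 libraries examined (the pathway genes named, in each fraction), 5 held 1 library far from the other 3, by a gap above Dixon's 95% critical value for the share of the range, where chance flags about 1 in 20. None was one of the 8 enzymes. Of the 11 other enzymes of the route, Acat2 stood apart in EpCAM- library 2 (101.2 CPM), Lbr in EpCAM- library 4 (303.6 CPM), Sc5d in EpCAM+ library 4 (34.7 CPM) and Dhcr7 in EpCAM- library 3 (46.3 CPM). Rabggtb stood apart in EpCAM+ library 3 (33.4 CPM).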

How the results depend on the processing

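Sqle was called lower under each alternative but the joint removal of EpCAM- libraries 3 and 4, and Lss was not called with upper-quartile scaling, library totals or 4 of the 8 libraries left out, so 1 enzyme of the 8 was called lower with either scaling (1 to 2 without each library) and 2 of the 11 others (2 to 5 without each library). With EpCAM- libraries 3 and 4 left out, an alternative chosen after seeing the data, 0 of the 8 and 1 of the 11 were called lower, among 1653 genes called higher and 1700 lower. Genes called higher and lower numbered 3642 and 2083 with upper-quartile scaling and 3476 and 2066 with library totals, against 2961 and 2818. The cause of these changes was not tested. The replicate block kept 2 of the 8 lower and raised the others from 5 to 6, with 3465 genes called higher and 3353 lower. It ended no call among the 8.

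Values near 0 changed sign. Fdft1 was at -0.011 with DESeq2, -0.0061 with genes of 1 count in any library and -0.068 to -0.028 without EpCAM+ 1, EpCAM+ 2, EpCAM- 2 or EpCAM- 3 (lowest of all libraries left out -0.068, highest 0.086). Cyp51 was at 0.083 with upper-quartile scaling, 0.084 with library totals, 0.022 with 10 counts in every library, 0.070 without EpCAM- 3 and 4 together, and 0.014 to 0.063 without EpCAM+ 3, EpCAM+ 4 or EpCAM- 4 (lowest -0.097, highest 0.063). Fdps was at 0.050 without EpCAM+ 4 and 0.28 without EpCAM- 2 (lowest -0.36, highest 0.28). Pmvk was at 0.029 with either scaling and -0.14 to 0.038 without each library, Srebf1 at 0.071 with upper-quartile scaling and 0.072 with library totals, 0.010 with 10 counts in every library and -0.12 to 0.092 without each library, Scap at 0.00037 with upper-quartile scaling, and Msmo1 at -0.0094 without EpCAM- 3 and 4 and -0.076 to 0.13 without each library. The few reads counted limit Fdps most, at 13 to 43 a library.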
